A study of Mus musculus with 6 samples.

Results

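The ADAMTS and ADAM genes described here are 10 zinc metalloproteases: Adamts1, Adamts2, Adamts4, Adamts5, Adamts7, Adamts9, Adamts12, Adam10, Adam12 and Adam17. They were taken by gene symbol from a deposited table of 16880 mouse genes, and all 10 were found in it. RNA was sequenced from 6 libraries in 2 groups of 3. The first group was treated with the inflammatory cytokine IL-1β at 10 ng/mL, and the second with the same dose of IL-1β plus the fascin-1 inhibitor NP-G2-044 at 10 μM, for 24 h by the study's methods. Every library thus carries IL-1β, and the comparison asks how the inhibitor moved these protease transcripts in cells already under the cytokine. Untreated or vehicle-treated cells were not analysed here. By their labels the cells are ATDC5, a chondrogenic line of mouse origin, while the methods speak of chondrocytes. The titles of the second group name NP-G2-044 and its treatment label names NP-G2-047. The methods call the replicates of a group biological replicates. The libraries of a group differed little, with a variance 1.54 to 2.39 times that of read sampling alone, against 133 to 136 times between groups. The common biological coefficient of variation of the fit was 2.33%. The p-values below thus measure the spread between these libraries, and whether that spread covers separate cultures was not tested.

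ADAMTS proteases are secreted enzymes that cut proteins of the extracellular matrix. They are made as inactive precursors, and most are activated when a furin-like convertase removes the prodomain. ADAMTS4 and ADAMTS5 are known as the aggrecanases of cartilage, ADAMTS1 and ADAMTS9 also cut aggrecan and versican, ADAMTS2 removes the amino-terminal propeptide from fibrillar procollagens, and ADAMTS7 and ADAMTS12 bind and cut COMP, a cartilage matrix protein. ADAM10 and ADAM17 are anchored in the membrane and release the outer parts of other membrane proteins, a process called shedding. ADAM12 is a further membrane-bound member known from muscle, fat and fibrotic tissue.

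The coding sequence of the active site is shown for all 10 genes because it carries what joins them, the 3 histidines that hold the catalytic zinc. Each line gives 33 bases, 5′ to 3′, from the longest complete coding transcript in GENCODE vM21 (GRCm38), with the codons of the 3 histidines in capitals.
Adamts1: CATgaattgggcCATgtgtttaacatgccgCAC
Adamts4: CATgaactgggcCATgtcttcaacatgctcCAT
Adamts9: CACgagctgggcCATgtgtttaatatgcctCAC
Adamts5: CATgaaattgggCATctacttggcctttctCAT
Adamts2: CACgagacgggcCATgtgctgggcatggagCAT
Adamts7: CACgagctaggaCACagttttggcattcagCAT
Adamts12: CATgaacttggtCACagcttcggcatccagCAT
Adam10: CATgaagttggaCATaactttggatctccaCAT
Adam17: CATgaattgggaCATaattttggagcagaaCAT
Adam12: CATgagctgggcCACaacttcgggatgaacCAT
Adamts1, Adamts4 and Adamts9 share aac or aat as codon 8 of the stretch, where the other 7 genes have a codon that starts with gg. The closest pair was Adamts1 and Adamts9, alike at 28 of 33 bases, followed by Adamts1 and Adamts4 at 27. Adam10 and Adam17 were alike at 26 bases, as were Adamts7 and Adamts12. Adamts5 matched the other genes at 17 to 22 bases and Adamts2 at 15 to 22. The 3 genes that share codon 8 did not share a direction in the RNA, since Adamts1 rose with the inhibitor while Adamts4 and Adamts9 fell.

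On GRCm38 the stretch of Adamts1 lies at chr16:85799191-85799545, across exons 3 and 4 of the transcript used, and that of Adamts5 at chr16:85878015-85887826, across exons 2 and 3. That of Adamts4 lies at chr1:171253210-171253915 across exons 3 and 4, that of Adamts9 at chr6:92905285-92908493 across exons 8 and 9, and that of Adamts2 at chr11:50775403-50776134 across exons 7 and 8. Adamts7 holds it at chr9:90179456-90180640 and Adamts12 at chr15:11241529-11255564, in both across exons 7 and 8, and Adam10 at chr9:70754296-70761585 across exons 9 and 10. These ranges include the intron between the exons. In Adam12 (chr7:133961158-133961190, exon 11) and Adam17 (chr12:21336732-21336764, exon 12) the stretch falls within a single exon.

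Levels are given in TPM, transcript units scaled by gene length and by library total, so that genes can be set beside each other. Library totals ranged from 16615824 to 17735860 reads. Differences between groups were tested with edgeR's quasi-likelihood test on the read counts over the 11983 genes that passed a filter on low counts, and a log2 fold change (log2FC, with its standard error, SE) sets the group with the inhibitor over the group without it. Of the 10 proteases, 9 passed the filter and Adam12 did not. At an adjusted p below 0.05, 8 of the 9 were lower with the inhibitor and 1, Adamts1, was higher. Such calls were common in these libraries, as 80.0% of all tested genes were called, 39.8% lower and 40.2% higher. When a log2 fold change above 1 in size was also required, 5 of the 9 were lower and 0 higher, against 16.6% of all genes in either direction, 10.1% lower and 6.48% higher. All 5 were ADAMTS genes: Adamts2, Adamts4, Adamts5, Adamts7 and Adamts9. One of them, Adamts9, had enough reads for the filter only in the IL-1β group, so its place among the tested genes already required a difference. The median log2 fold change of the 9 was −1.51, beside 0.0018 for all tested genes. As these are bulk samples, fewer cells of a type and less RNA per cell cannot be told apart.

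**Figure D1:**
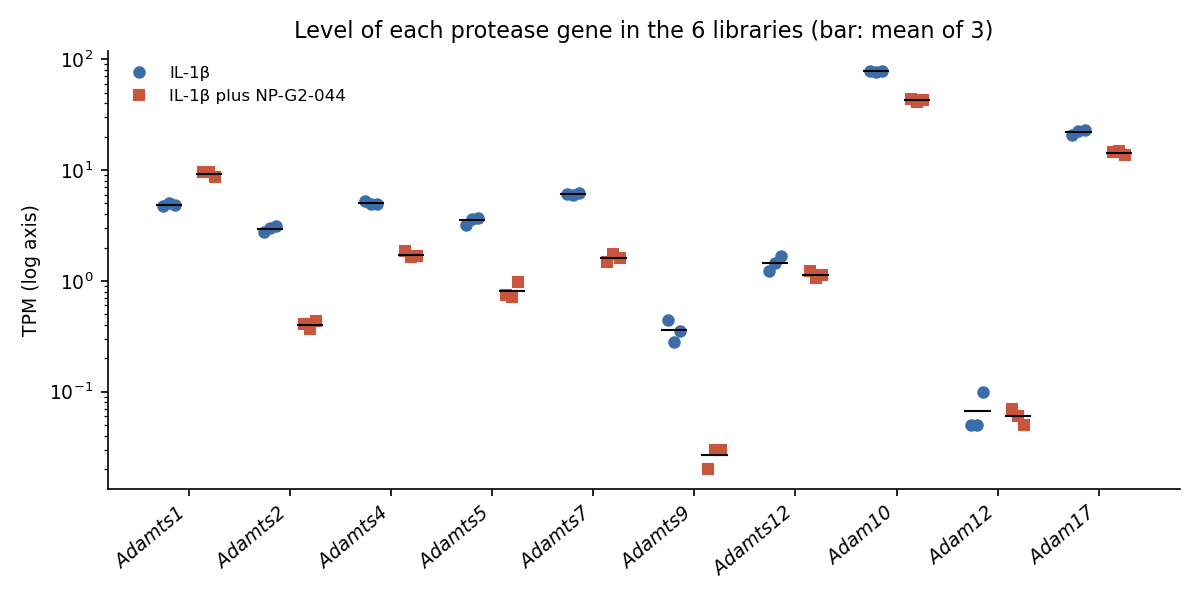
TPM of each protease gene on a log axis in the 3 IL-1β libraries (circles) and the 3 libraries with NP-G2-044 as well (squares), with a bar at the mean of each group. Adam10 at 41.2 to 79.0 TPM lies above all other genes shown, Adamts1 alone has its squares above its circles, and the groups overlap for Adamts12 and Adam12.

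Among the proteases that cut aggrecan and versican, Adamts4 and Adamts5 fell, Adamts9 dropped to 2 or 3 reads per library, and Adamts1 rose. Adamts5, the main aggrecanase of mouse cartilage, stood at 3.22, 3.63 and 3.72 TPM with IL-1β alone and at 0.75, 0.72 and 0.97 TPM in the libraries with the inhibitor. All 3 inhibitor libraries were below all 3 IL-1β libraries. The fall was 4.22-fold (95% interval 3.65 to 4.89), with a log2FC of −2.08 (SE 0.106, adjusted p = 2.19e-24, edgeR). It rested on 877 reads in the IL-1β group and 218 in the other.

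Adamts4, the other aggrecanase, had 5.23, 4.96 and 4.90 TPM with IL-1β and 1.86, 1.64 and 1.68 TPM once NP-G2-044 was added. The groups did not overlap, and the replicates of each group lay close together. Adamts4 fell 2.84-fold (2.51 to 3.22), less than Adamts5 by the fitted values, with a log2FC of −1.51 (SE 0.0894, adjusted p = 1.41e-21, edgeR). The ratio of Adamts4 to Adamts5 TPM was 1.62, 1.37 and 1.32 with IL-1β alone and 2.48, 2.28 and 1.73 in the inhibitor libraries, higher in all 3 of the latter.

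Adamts1, first known as a gene induced in inflammation and able to cut both aggrecan and versican, moved the other way. It was at 4.71, 5.08 and 4.80 TPM with IL-1β and at 9.67, 9.65 and 8.58 TPM with the inhibitor added. The inhibitor libraries were all above the IL-1β libraries. The rise was 1.96-fold (1.77 to 2.16), and its log2FC of 0.97 (SE 0.0713, adjusted p = 7.68e-18, edgeR) lay just short of the cutoff of 1, with a 95% interval of 0.83 to 1.11 that holds it. Leaving out replicate 3 of the inhibitor group, its lowest library, put Adamts1 at 1.02 and past both cutoffs.

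Adamts9, which also takes part in melanoblast and vascular development, was low throughout. Its reads numbered 37, 23 and 30 with IL-1β alone and 2, 3 and 3 with the inhibitor, or 0.28 to 0.44 TPM against 0.02 to 0.03 TPM. The 2 groups were far apart even at this depth. Pooled, 90 reads against 8 gave a level 11.8 times higher with IL-1β alone (exact 95% interval 5.76 to 28.3, counting error only), and the fitted log2FC was −3.50 (SE 0.385, adjusted p = 9.29e-12, edgeR). Since Adamts9 passed the filter only through the IL-1β group, this adjusted p is no separate support for the difference. On the log2(TPM + 1) scale, which compresses low values, the difference was −0.40 and Adamts9 no longer passed the fold cutoff.

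Adamts1 and Adamts5 are neighbours in the genome. Adamts1 lies at chr16:85793827-85803113 and Adamts5 at chr16:85856173-85901828 (GRCm38), both on the minus strand, with 53.1 kb and 0 protein-coding genes between them. In spite of that, the neighbours moved in opposite directions. The ratio of Adamts1 to Adamts5 TPM was 1.46, 1.40 and 1.29 with IL-1β alone and 12.9, 13.4 and 8.85 in the inhibitor libraries. The 3 tested genes whose log2 CPM profile over the 6 libraries came nearest to that of Adamts5 were Setbp1, Nrm and Il1rap. Their root mean square differences from it were 0.0652, 0.0911 and 0.0992 log2 units. Setbp1 encodes a nuclear protein that binds SET, Nrm the nuclear envelope protein nurim, and Il1rap the accessory chain of the IL-1 receptor. Il1rap went from 4.80, 5.17 and 5.16 TPM to 1.06, 1.05 and 1.51 TPM. Within the inhibitor group, Il1rap, Setbp1 and Nrm were all highest in replicate 3, as Adamts5 was. That likeness is no separate result, because the genes were picked by their profile over these same libraries.

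Adamts2, the procollagen N-proteinase, had the largest fall among the proteases with more than 100 reads per IL-1β library. Its level was 2.78, 2.98 and 3.14 TPM with IL-1β and 0.41, 0.37 and 0.43 TPM once NP-G2-044 was added. The spread within each group was small beside the gap between them. Adamts2 fell 7.20-fold (6.01 to 8.62), with a log2FC of −2.85 (SE 0.130, adjusted p = 1.71e-26, edgeR). The genes that act with it, the procollagen chains and the enzymes of the carboxy-terminal propeptide, moved in the same direction. Of 11 listed genes 9 were tested and all 9 were lower, beside 39.8% of all tested genes. The median of the 9 was −1.83, and 8 passed both cutoffs, beside 10.1% lower among all tested genes. One of the 8, Col2a1, had enough reads for the filter only in the IL-1β group. Pcolce, which enhances the removal of that propeptide, went from 766 ± 7.79 to 108 ± 0.653 TPM (SD, n = 3) at −2.80, and Col1a1, a chain of type I procollagen, from 8.76 ± 0.191 to 1.23 ± 0.131 TPM, also at −2.80. The other chain of type I procollagen, Col1a2, was far more abundant and fell less. It went from 1098 ± 27.0 to 331 ± 6.80 TPM (SD, n = 3) at −1.70, and was named after its values were seen. Col3a1 had a log2FC of −2.31 and Col5a1 of −1.83, both past the cutoffs. Bmp1, the procollagen C-proteinase, fell by 0.66, short of the fold cutoff, from 28.4 ± 1.02 to 17.8 ± 0.0608 TPM (SD, n = 3, adjusted p = 5.53e-19, edgeR).

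Both other known procollagen N-proteinases were also in the table. Adamts14 was at 5.59, 5.49 and 5.41 TPM with IL-1β and at 8.75, 8.29 and 7.28 TPM with the inhibitor, a rise of 0.59 on the log2 scale (SE 0.0712, adjusted p = 1.22e-10, edgeR). Adamts3, named here after its values were seen because its mean was under 1 TPM, had 46, 41 and 53 reads with IL-1β and 0, 2 and 1 with the inhibitor. Pooled, 140 reads against 3 gave a ratio of 49.1 (exact 95% interval 16.5 to 241, counting error only). Like Adamts9, Adamts3 had enough reads for the filter only in the IL-1β group. Of the 3 N-proteinases, Adamts2 and Adamts3 were lower with the inhibitor in these libraries and Adamts14 was higher.

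Adamts7 and Adamts12, the proteases that bind COMP, differed in how far they moved. Adamts7, also known from vascular smooth muscle, was at 6.05, 6.00 and 6.23 TPM with IL-1β, the highest level of any of the 7 ADAMTS genes there, and at 1.47, 1.76 and 1.60 TPM once NP-G2-044 was added. The groups were well separated. The fall was 3.65-fold (3.19 to 4.18), with a log2FC of −1.87 (SE 0.0972, adjusted p = 5.51e-24, edgeR).

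Adamts12 was at 1.23, 1.45 and 1.68 TPM with IL-1β and at 1.23, 1.06 and 1.12 TPM with the inhibitor. The groups overlapped, since replicate 1 had the same value in both. Its log2FC was −0.32 (SE 0.116, adjusted p = 0.0117, edgeR), and the call was lost when the highest IL-1β library, replicate 3, was left out (−0.20, adjusted p = 0.142) and when replicate 2 of the inhibitor group, its lowest, was left out (−0.27, adjusted p = 0.0588). DESeq2 gave −0.32 with an adjusted p of 0.0631. The ratio of Adamts7 to Adamts12 TPM went from 4.92, 4.14 and 3.71 to 1.20, 1.66 and 1.43. Comp, their shared substrate, gave between 1 and 3 reads per IL-1β library and between 0 and 4 per inhibitor library, so a change in it was not detectable at this depth.

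**Figure D2:**
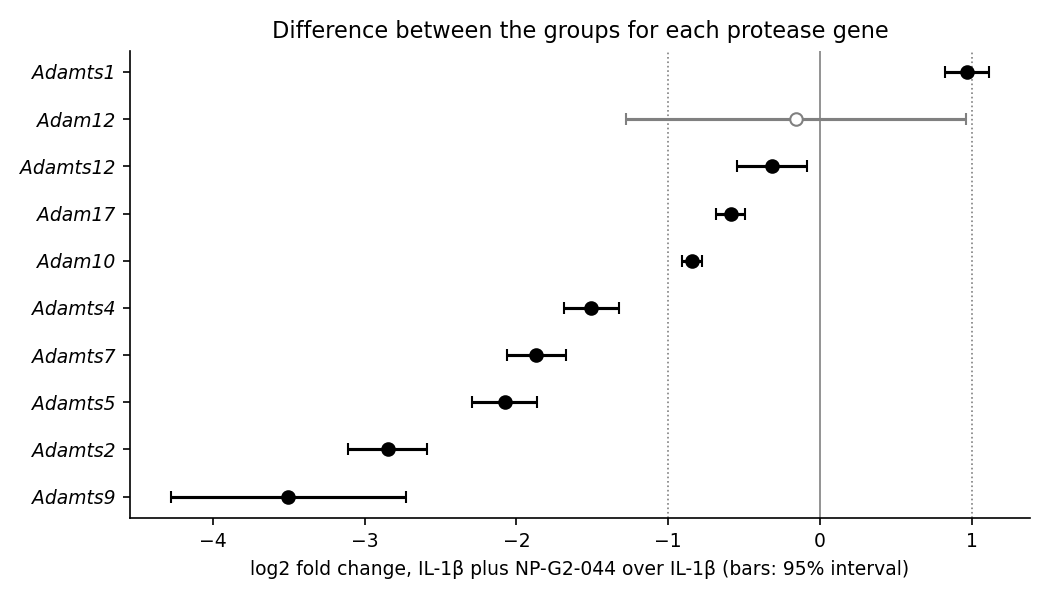
Log2 fold change of each protease gene, inhibitor group over IL-1β group, with its 95% interval; dotted lines mark the fold cutoff of 1 in size. Adamts9 (−3.50) and Adamts2 (−2.85) lie farthest to the left, Adamts1 (0.97) is the only filled point to the right of 0, and the open point is Adam12, fitted without the filter on low counts.

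The 2 sheddases were the most abundant of the 10 proteases in every library, and both fell by less than 2-fold. Adam10, which cuts Notch receptors, cadherins and many other membrane proteins, was at 78.9, 77.2 and 79.0 TPM with IL-1β and at 44.1, 41.2 and 42.7 TPM with the inhibitor. The values within a group were nearly the same and the groups did not overlap. Adam10 fell 1.80-fold (1.72 to 1.88), with a log2FC of −0.84 (SE 0.0319, adjusted p = 4.06e-30, edgeR), which was the lowest p of the 10 genes on the largest number of reads, 10806 against 6323.

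Adam17, the TNF-α converting enzyme, was at 20.8, 22.4 and 23.0 TPM with IL-1β and at 14.6, 14.8 and 13.7 TPM once NP-G2-044 was added. All inhibitor libraries were lower. Adam17 fell 1.50-fold (1.41 to 1.61), with a log2FC of −0.59 (SE 0.0471, adjusted p = 1.92e-16, edgeR). The ratio of Adam10 to Adam17 TPM was 3.79, 3.44 and 3.44 with IL-1β and 3.03, 2.79 and 3.11 with the inhibitor, so that Adam10 fell more than Adam17 in these libraries.

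Adam12 was barely expressed. It had 4, 4 and 8 reads with IL-1β and 6, 5 and 4 with the inhibitor, or 0.05 to 0.10 TPM against 0.05 to 0.07 TPM. The groups overlapped. The pooled reads, 16 and 15, gave a ratio of 0.891 for the inhibitor over IL-1β alone (exact 95% interval 0.410 to 1.92), so that a change within this interval was not detectable at this depth.

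In order of mean TPM with IL-1β, Adam10 came first, followed by Adam17, Adamts7, Adamts4, Adamts1, Adamts5, Adamts2, Adamts12, Adamts9 and Adam12. Adamts4 and Adamts1, neighbours in that order at 5.03 ± 0.176 and 4.86 ± 0.193 TPM (SD, n = 3), did not differ beyond their spread. With the inhibitor the order became Adam10, Adam17, Adamts1, Adamts4, Adamts7, Adamts12, Adamts5, Adamts2, Adam12 and Adamts9. There Adamts4 at 1.73 ± 0.117 and Adamts7 at 1.61 ± 0.145 TPM lay within their spread of each other.

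Among the 7 ADAMTS genes chosen here, Adamts1 had the largest share once the inhibitor was added. Other ADAMTS genes of the table, which together had 23.91 to 25.09 TPM in the IL-1β libraries and 21.95 to 23.95 TPM in the inhibitor libraries, are not in these shares. The summed TPM of the 7 was 24.3 ± 0.586 with IL-1β and 15.0 ± 0.533 after addition of NP-G2-044 (SD, n = 3). Adamts1 made up 20.0% ± 0.756 of the sum with IL-1β and 61.9% ± 2.05 with the inhibitor. Adamts7 went from 25.1% ± 0.480 to 10.7% ± 1.06, Adamts4 from 20.7% ± 1.23 to 11.5% ± 0.665, and Adamts5 from 14.5% ± 0.769 to 5.44% ± 1.12. The share of Adamts2 went from 12.2% ± 0.451 to 2.69% ± 0.279 and that of Adamts9 from 1.47% ± 0.360 to 0.178% ± 0.0424. Adamts12 took 5.97% ± 0.785 and 7.57% ± 0.540 of the sum, a larger share of a smaller total. These shares are parts of 1 sum and do not move independently, and the depth of each gene limits the share of the rare ones.

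**Figure D3:**
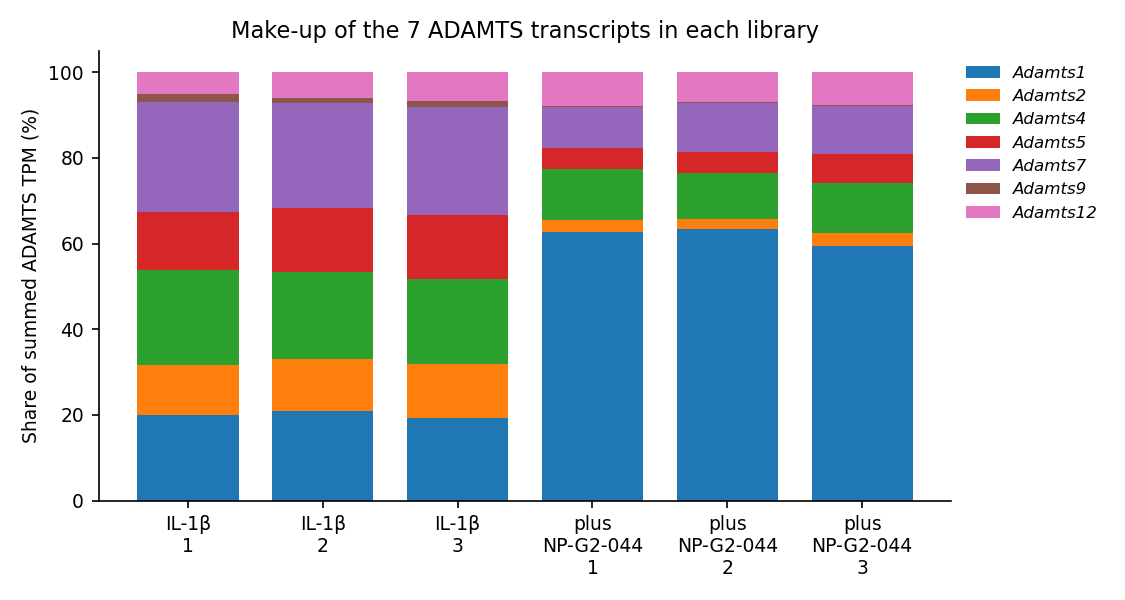
Share of each ADAMTS gene in the summed TPM of the 7 ADAMTS genes, in percent, 1 bar per library. Adamts1 takes 19.3% to 20.8% of the bar in the IL-1β libraries but 59.5% to 63.4% in the libraries that also had NP-G2-044.

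The sequence before the start site is shown for the gene that rose and for the 2 that fell most. Of the 10 genes, 6 had an entry in the RefSeq promoter table (GRCm38.p6), namely Adamts1, Adamts2, Adamts9, Adamts12, Adam10 and Adam17, and Adamts4, Adamts5, Adamts7 and Adam12 had none. Each window holds the 250 bases before the start site, 5′ to 3′ on the gene's strand. Capitals mark matches on either strand to the GC box (GGGCGG), the TATA box (TATAAA) or the NF-κB consensus.
Adamts1, chr16:85803114-85803363, minus strand: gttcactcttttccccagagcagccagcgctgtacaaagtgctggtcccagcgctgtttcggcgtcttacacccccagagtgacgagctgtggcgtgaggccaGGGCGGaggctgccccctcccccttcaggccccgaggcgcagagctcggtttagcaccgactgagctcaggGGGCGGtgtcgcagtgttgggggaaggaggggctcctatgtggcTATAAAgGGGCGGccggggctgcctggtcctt
Adamts2, chr11:50601835-50602084, plus strand: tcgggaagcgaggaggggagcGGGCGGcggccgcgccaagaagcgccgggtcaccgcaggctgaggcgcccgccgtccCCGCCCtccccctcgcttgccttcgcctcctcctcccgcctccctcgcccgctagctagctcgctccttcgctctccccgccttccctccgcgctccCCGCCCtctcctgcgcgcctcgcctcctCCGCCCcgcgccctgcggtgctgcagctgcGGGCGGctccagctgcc
Adamts9, chr6:92943535-92943784, minus strand: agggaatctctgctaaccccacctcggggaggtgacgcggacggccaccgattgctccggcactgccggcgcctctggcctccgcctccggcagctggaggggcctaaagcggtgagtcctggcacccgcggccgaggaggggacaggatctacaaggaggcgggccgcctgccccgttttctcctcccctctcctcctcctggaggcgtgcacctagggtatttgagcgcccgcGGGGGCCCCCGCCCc
Adamts1 held 3 GC boxes and a TATA box that begins 32 bases before the start site. Adamts2 held 5 GC boxes and no TATA box, and Adamts9 held 1 GC box that overlaps an NF-κB match by 2 bases. Over 32851 RefSeq windows of the same length, 32.7% held a GC box, 12.4% the TATA letters and 7.25% an NF-κB match. Matches to AP-1 (TGANTCA), CRE (TGACGTCA), TEAD (GGAATG), RUNX (TGTGGT) and the CArG box of SRF were also sought on both strands and were not in any of the 6 windows, beside 6.75%, 1.55%, 12.6%, 14.1% and 1.47% of all windows. GC content was 65.6% in the window of Adamts1, 78.0% in that of Adamts2 and 71.2% in that of Adamts9, against a median of 52.4% over all windows. These matches describe the letters of the windows only.

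The genes around the proteases were followed in 14 lists by role, 102 genes in all, of which 96 were in the table and 65 were tested. At an adjusted p below 0.05, 41 of the 65 were lower and 14 higher, and 10 were not called, beside 39.8% lower and 40.2% higher among all tested genes. Past both cutoffs, 24 were lower and 1 higher, beside 10.1% lower and 6.48% higher among all tested genes. The same shares belong beside the counts of each single list and of the cell type markers, where a call by adjusted p alone is common. Their median log2 fold change was −0.60, beside 0.0018 for all tested genes. With no filter on low counts the number higher past both cutoffs became 2, the second being Areg.

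Among the relatives, 5 of 12 other ADAMTS genes were tested, 2 were lower and 2 higher, and 1 passed both cutoffs, with a median of −0.45. That gene was Adamts3, which like Adamts9 had enough reads for the filter only in the IL-1β group, and the count became 0 with at least 10 CPM in 3 libraries or on the log2(TPM + 1) scale. Adamts10, a protease linked to fibrillin microfibrils, was at 11.6, 11.3 and 12.1 TPM with IL-1β and at 7.82, 7.23 and 7.12 TPM with the inhibitor. Of the 7 ADAMTS-like proteins, which have the ancillary domains of the family without a protease, 2 were tested, and they moved apart. Adamtsl4 fell from 15.2, 16.4 and 15.6 to 2.75, 2.83 and 1.98 TPM, with a log2FC of −2.62 (SE 0.0842, adjusted p = 2.88e-33, edgeR). Adamtsl3 rose from 5.65, 5.67 and 6.15 to 15.1, 15.3 and 15.5 TPM, with a log2FC of 1.42 (SE 0.0489, adjusted p = 5.68e-32, edgeR), and was the 1 gene of the 65 past both cutoffs upward. Their median was −0.60.

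Of 10 other ADAM proteins 6 were tested, 4 were lower, 3 beyond the fold cutoff as well, and 2 were higher, the median being −1.27. Adam19, also called meltrin beta, fell by 2.85 on the log2 scale from 2.35 ± 0.250 to 0.313 ± 0.0924 TPM, and Adam23, which lacks a working active site and binds integrins, fell by 2.19 from 2.75 ± 0.350 to 0.587 ± 0.0802 TPM (SD, n = 3). The third was Adam11, at −1.90 and a mean under 1 TPM, named after its values were seen. The count of 3 became 5 without replicate 1 of the inhibitor group and 4 without replicate 1 of the IL-1β group, and 0 with at least 10 CPM in 3 libraries. Adam9 and Adam15, both abundant membrane proteases, rose by 0.37 and 0.44.

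The tested genes for metalloprotease inhibitors and for cell-surface binding and uptake were all lower once NP-G2-044 was added. All 4 tested of 6 listed inhibitors were lower and 2 passed both cutoffs, with a median of −0.97. Timp3, the inhibitor of the aggrecanases and of ADAM17, had 65.5, 70.0 and 70.1 TPM with IL-1β and 36.3, 34.3 and 36.0 TPM with NP-G2-044, with a log2FC of −0.91 (SE 0.0332, adjusted p = 6.76e-31, edgeR). Timp2 fell by 1.49 from 639 ± 19.7 to 222 ± 12.5 TPM and Timp1 fell by 1.03 from 262 ± 10.2 to 127 ± 2.48 TPM (SD, n = 3). The 4 genes of cell-surface binding and uptake were all tested and all lower, 1 beyond the fold cutoff as well, the median being −0.92. Sdc4, a syndecan that binds ADAMTS5, fell by 1.69 from 61.6 ± 1.38 to 18.7 ± 1.11 TPM. Lrp1, the endocytic receptor that removes ADAMTS4, ADAMTS5 and TIMP3 from the matrix, fell by 0.91 from 50.3 ± 2.81 to 26.2 ± 2.02 TPM (adjusted p = 4.43e-07, edgeR).

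Among the activators and partners of the proteases, no tested gene passed the fold cutoff. Of 4 proprotein convertases 3 were tested and 1, Furin, was lower, with a median of −0.028. Furin was at 51.5, 50.9 and 52.8 TPM with IL-1β and at 43.7, 41.8 and 39.4 TPM with the inhibitor, with a log2FC of −0.28 (SE 0.0351, adjusted p = 3.45e-10, edgeR). Of the 3 genes whose products accompany ADAM17 to the surface, Rhbdf2 was higher at 0.29 (adjusted p = 1.15e-05) and Rhbdf1 at 0.18 (adjusted p = 0.00431), and Frmd8 was lower at −0.72 (adjusted p = 1.39e-19, edgeR). Their median was 0.18, and 0 of the 3 passed the fold cutoff. Of the 6 tetraspanins that escort ADAM10, 5 were tested, 2 were lower, 1 was higher and 0 passed the fold cutoff, with a median of −0.10. The one that was higher was Tspan15, at 0.42 (adjusted p = 2.88e-08, edgeR).

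Substrates were uneven. In the hyalectan and matrix list, 3 of 10 genes were tested and all 3 fell past both cutoffs, with a median of −1.81. Acan, which encodes aggrecan, was not listed in the table. Vcan, which encodes versican, was at 2.30, 2.30 and 2.37 TPM with IL-1β and at 0.49, 0.49 and 0.51 TPM with the inhibitor, with a log2FC of −2.30 (SE 0.112, adjusted p = 3.36e-25, edgeR). Bgn, the proteoglycan biglycan, fell by 1.58 from 2141 ± 49.3 to 700.1 ± 19.8 TPM, and Dcn, decorin, fell by 1.81 from 3.83 ± 0.850 to 1.05 ± 0.266 TPM (SD, n = 3).

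Among substrates of the sheddases, 4 of 5 tested cytokines and cytokine receptors of 8 listed were lower and 3 passed both cutoffs, with a median of −1.62. Cx3cl1, a membrane-bound chemokine, fell by 3.88 from 149 ± 5.07 to 9.88 ± 0.633 TPM, Il6ra fell by 2.16 from 10.8 ± 0.595 to 2.35 ± 0.329 TPM, and the TNF receptor gene Tnfrsf1b fell by 1.62 from 20.9 ± 0.503 to 6.62 ± 0.374 TPM (SD, n = 3). Of 7 ligands of the EGF receptor family 5 were tested, 3 were higher and 1 lower, with a median of 0.43. The lower one, the neuregulin gene Nrg1, fell by 1.55 from 26.2 ± 1.52 to 9.17 ± 0.110 TPM and passed both cutoffs. Of 5 Notch receptors and ligands 4 were tested, and 1, Notch2, was lower at −0.90 (adjusted p = 1.93e-29, edgeR), with a median of 0.25. The 9 adhesion and other membrane substrates gave 7 tested genes, 4 lower, 3 higher and 1 past both cutoffs, with a median of −0.084. That gene was Vcam1, an adhesion receptor for leukocytes, which fell by 3.25 from 2.95 ± 0.240 to 0.300 ± 0.148 TPM, and which had enough reads for the filter only in the IL-1β group.

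**Figure D4:**
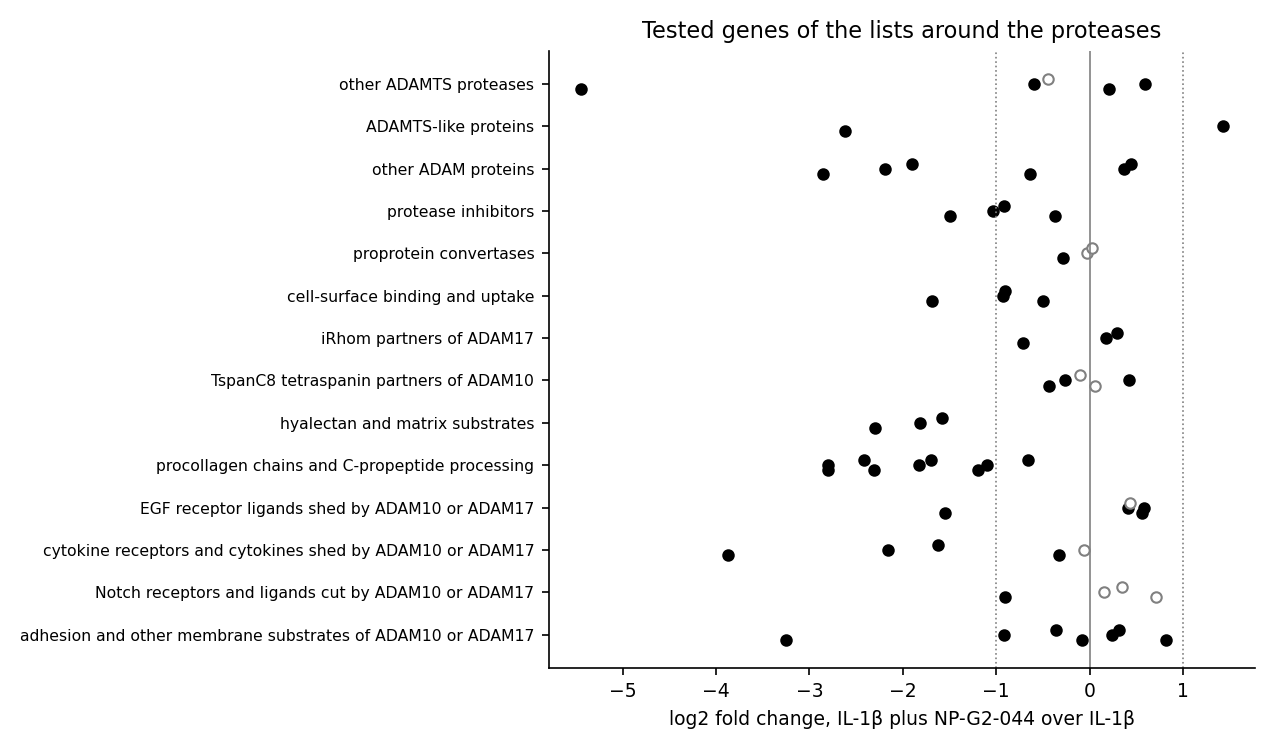
Log2 fold change of each tested gene in the 14 lists of related genes, inhibitor group over IL-1β group; filled points have an adjusted p below 0.05 and dotted lines mark the fold cutoff of 1 in size. The procollagen list lies wholly below 0, and Adamtsl3 (1.42) is the only point above 1.

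The label of a chondrogenic line was checked against markers of chondrocytes. Of 16 markers 10 were listed and 3 had a mean of at least 1 TPM. Their summed level was 22.4 to 23.3 TPM with IL-1β and 17.6 to 18.4 TPM with the inhibitor. Acan, Col9a1, Col9a2, Hapln1, Cnmd and Snorc were not listed, Matn1 was at 0 in all libraries, and Col2a1, the type II collagen chain, had 32 reads over the IL-1β group and 6 over the other. Of the 6 tested, 3 were lower and 1 was higher. The higher one was Sox9, the chondrocyte transcription factor, at 5.94 to 7.21 TPM with IL-1β and 11.3 to 11.4 TPM with the inhibitor. Its partner Sox5 fell, with 10.2 to 10.3 TPM in the first group and 2.03 to 2.52 TPM in the second (log2FC −2.49, adjusted p = 5.06e-33, edgeR), and Col11a2, a minor cartilage collagen chain, had a log2FC of −0.56. Fibroblast markers, 10 of 10 listed, summed to 1144 to 1192 TPM with IL-1β and to 361 to 377 TPM with the inhibitor, most of it from Col1a2, and Thy1 was at 0 throughout. Of the 6 tested, 5 were lower and 1 was higher, Pdgfra, a growth factor receptor, which rose, with 2.16 to 2.69 TPM in the first group and 8.49 to 9.03 TPM in the second (log2FC 1.91, adjusted p = 2.49e-29, edgeR). Macrophage markers, 7 of 8 listed, summed to 24.1 to 24.8 and to 129 to 140.2 TPM. The rise of the sum lay in Cd68, at 10.6 to 14.0 TPM in the IL-1β group and 124 to 135 TPM in the other. Cd14, the only other tested marker, went the other way (log2FC −1.19, adjusted p = 3.52e-13, edgeR). It had 10.3 to 13.3 TPM in the first group and 4.50 to 5.09 TPM in the second. Ptprc, which marks all leukocytes, was at 0 in all 6 libraries. Endothelial markers stayed below 1 TPM in sum. The part that these differences take in the protease values was not tested.

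In GENCODE vM21, exons of Adamts7, Adamts9 and Adam17 overlap exons of a gene on the opposite strand, and the strand setting of the counting is not stated in the sources at hand. Adamts7 shares 122 bases with Tbc1d2b, and Adam17 shares 311 with Iah1. Adamts9 shares 1381 with A730049H05Rik and 424 with Gm15737. Tbc1d2b had 1005 to 1040 reads in all 6 libraries, whereas the reads of Adamts7 fell from between 303 and 317 to between 76 and 101. Iah1 had 171 to 187 reads under IL-1β alone and 221 to 248 with NP-G2-044. If the counting did not use the strand, reads from such a pair cannot be told apart where the exons overlap.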

How the data were processed

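Gene-level RNA-seq values of 6 libraries, 3 per group, were compared. The authors' quantification gave estimated counts per gene, deposited without normalization, together with TPM and FPKM per gene and library. The submitters' processing notes name cutadapt, HISAT2 2.0, StringTie and the mm10 build; how they were applied, the annotation and the strand setting are not stated in the sources at hand. The authors' group averages were not used. Between 10.17% and 11.06% of the counts per library were not whole, so counts were rounded. Genes were filtered with filterByExpr (minimum count 10), normalized with TMM and tested with edgeR 4.0.16 in R 4.3.3 (glmQLFit with robust estimation, glmQLFTest, no covariates). P-values were adjusted by Benjamini-Hochberg over all 11983 genes tested. A standard error is the size of the log2 fold change over the square root of F. TPM was used for levels and shares, and FPKM only as an alternative for the shares. Pooled read ratios carry exact Clopper-Pearson 95% intervals, which cover counting error only. The cutoffs of 0.05 and 1 follow the paper.

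The members and all lists were chosen with earlier results of these data known. All 10 members are named, and so is every gene of a list past both cutoffs with a mean of at least 1 TPM, at most 4 per list, together with Timp3, Acan, Vcan, Lrp1, Furin, Rhbdf2 and Bmp1; other names were chosen after their values were seen. Sequences came from GENCODE vM21 and RefSeq (GRCm38). Of the overlaps between genes, 1 is not reported here. Steps were tested on simulated counts. Alternatives were DESeq2 size factors, library size alone, DESeq2 1.42.0, limma-voom and limma 3.58.1 on log2(TPM + 1) or log2(TPM + 0.1), no filter, 10 CPM in 3 libraries, a block for the replicate number, leaving out each library, and a test against a 2-fold change.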

Additional observations from a re-analysis of the deposited data

How the results depend on the processing

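The number of proteases lower past both cutoffs was 5 in the main analysis and 4 or 5 under every alternative run, with 4 on the log2(TPM + 1) scale and with at least 10 CPM in 3 libraries, where Adamts9 was lost. The number higher was 0, and 0 to 1 when a library was left out, the 1 being Adamts1 without replicate 3 of the inhibitor group. Adamts12 lost its call with DESeq2 (−0.32, adjusted p = 0.0631), on log2(TPM + 1) (−0.20, adjusted p = 0.0565, limma) and on log2(TPM + 0.1) (−0.32, adjusted p = 0.08, limma), and its log2 fold change ranged from −0.42 to −0.20 with 1 library left out. Adam12 ranged from −0.32 to 0.24, reversing to 0.24 (adjusted p = 0.785, edgeR) without replicate 3 of the IL-1β group. The cause was not tested. The other 8 proteases kept their direction and an adjusted p below 0.05 under every alternative that tested them. Related genes higher past both cutoffs numbered 1, then 2 with no filter and 1 to 2 with 1 library left out. Those lower numbered 24 in the main analysis and 17 with at least 10 CPM in 3 libraries. The lower count was 26 with no filter and also without replicate 1 of the inhibitor group.

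Over all genes, 776 were higher and 1211 lower past both cutoffs, against 514 and 802 on log2(TPM + 1) and 484 and 680 with at least 10 CPM, where fewer genes were tested (9447). The replicate numbers gave no sign of pairing. Same-numbered libraries had correlations of −0.093, −0.024 and 0.026 between their deviations from the group means, and other pairs −0.107 to 0.129. As these deviations lie near read sampling noise, they cannot show whether the samples were paired. With the replicate block, 5 proteases were lower and 0 higher past both cutoffs (775 and 1209 genes over the table), and it changed no call among the proteases. Depth limits Adam12 and Adamts9 most, with 16 and 15 reads for Adam12 and 90 and 8 for Adamts9 in the 2 groups.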

Other observations

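Of the ADAMTS genes below the filter on low counts, Adamts15, a further versican-cutting protease, was seen with 9, 6 and 8 reads under IL-1β alone and 0 in each of the 3 libraries with the inhibitor. Adamts8 and Adamts20 were listed at 0 in all 6 libraries. Areg, the EGF receptor ligand amphiregulin, which ADAM17 sheds, had 3, 2 and 1 reads with IL-1β and 12, 8 and 15 with IL-1β plus NP-G2-044. Pooled, 6 against 35 reads gave a ratio of 5.54 for the inhibitor group over IL-1β alone (exact 95% interval 2.31 to 16.1, counting error only). These genes were named after their values were seen.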
